A study of Mus musculus with 6 samples.

Results

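The genes described here are the ligands, receptors and intracellular SMAD proteins of the TGF-beta and BMP pathways, measured in mouse soleus muscle. They were matched by gene symbol, and the choice was made with earlier results of these data known. They comprised the TGF-beta ligands and receptors, genes with a Bmp or Gdf symbol except Gdf11, the BMP receptors and the SMADs. Of 30604 array features that carried a single gene symbol, 35 matched, and they belonged to 35 genes. Tests covered 25 of the 35, because the other 10 did not lie above the median signal of the array on at least 3 of the 6 arrays.

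The soleus is a calf muscle with many slow fibres. It was taken at 39 to 41 weeks of age from male mice of 2 groups. The Control group held 3 mice labelled wild type. The cKO group held 3 mice labelled as carrying a DMP1 Cre Mbtps1 knockout, and the series title calls the controls littermates. Mbtps1 encodes site-1 protease, and Dmp1 is a gene of osteocytes, the cells embedded in bone. The labels gave no further alleles, and they did not say whether Control mice carried a floxed allele or a Cre transgene. Each mouse gave 1 array, and the deposited signals were read as log2. Slow muscle genes were bright on every array, with Myh7 at 19.27 ± 0.09 (SD, n = 3) in Control. Of the 9 bone and osteocyte markers only 2 passed the filter, and Dmp1 and Sost did not. Whole muscle mixes cell types, so fewer cells of a type and less RNA per cell cannot be told apart.

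TGF-beta and BMP ligands are secreted dimers made from longer precursors. They assemble type I and type II serine/threonine kinase receptors, and the type I receptor phosphorylates receptor SMADs. SMAD2 and SMAD3 carry the TGF-beta signal, SMAD1, SMAD5 and SMAD9 carry the BMP signal, SMAD4 is the partner shared by both branches, and SMAD6 and SMAD7 are feedback inhibitors. In skeletal muscle, BMP signalling supports muscle mass, whereas TGF-beta acts on satellite cells, fibrosis and tendon.

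Promoter windows from RefSeq (assembly GRCm38.p6, 250 bases before to 50 bases after an annotated start) were used for 22 of the 35 genes, 27 windows in all. They are printed for Bmpr1b and Bmp5, BMP-branch genes whose Control and cKO arrays did not overlap. Smad6 is also printed, as the only gene of the 22 with a SMAD palindrome in its window. Smad2, Smad4 and Smad7 were not among the 22, so their promoters were not searched. Of the 3 Bmpr1b windows the most upstream is shown. Capitals mark the SMAD palindrome.
Bmpr1b, chr3:141982215-141982514, minus strand: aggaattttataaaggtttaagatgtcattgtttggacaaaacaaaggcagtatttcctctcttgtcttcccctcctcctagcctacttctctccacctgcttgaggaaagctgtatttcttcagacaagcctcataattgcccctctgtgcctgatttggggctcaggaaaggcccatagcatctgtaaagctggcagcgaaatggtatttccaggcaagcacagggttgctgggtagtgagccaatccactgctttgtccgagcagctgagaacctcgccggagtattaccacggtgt
Bmp5, chr9:75775115-75775414, plus strand: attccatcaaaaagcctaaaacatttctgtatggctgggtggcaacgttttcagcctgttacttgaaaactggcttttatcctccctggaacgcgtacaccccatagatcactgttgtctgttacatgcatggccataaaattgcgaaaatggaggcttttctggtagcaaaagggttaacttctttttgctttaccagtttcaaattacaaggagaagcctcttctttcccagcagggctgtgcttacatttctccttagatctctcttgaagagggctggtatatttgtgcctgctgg
Smad6, chr9:64022010-64022309, minus strand: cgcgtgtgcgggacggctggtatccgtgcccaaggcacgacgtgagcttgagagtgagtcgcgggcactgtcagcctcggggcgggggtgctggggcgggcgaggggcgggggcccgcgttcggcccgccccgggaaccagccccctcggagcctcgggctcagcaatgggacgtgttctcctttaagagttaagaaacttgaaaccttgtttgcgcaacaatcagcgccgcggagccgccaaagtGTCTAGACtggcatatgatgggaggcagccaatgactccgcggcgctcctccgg
Each motif searched reads the same on both strands. The SMAD palindrome GTCTAGAC was in 1 of the 27 windows, that of Smad6, against 0.213% of all 32851 windows in the RefSeq table. The GC-rich element GGCGCC, bound by BMP-activated SMADs, was in 7 of the 27, against 11.9% of all windows. These were windows of Bmpr1a, Bmpr2, Gdf10, Smad5, Smad9 and Tgfbr1, and those of Smad5 overlapped each other. The E-box CACGTG was in the windows of Bmp4, Bmp6 and Tgfb2, against 7.15% of all windows. None of these letters occurred in the windows shown for Bmpr1b and Bmp5. A match is a description of the sequence only.

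Comparing cKO with Control addressed how the pathway's transcripts differ in muscle between littermates with and without the Mbtps1 knockout. With limma, 0 of the 25 tested genes passed an adjusted p of 0.05, and so did 0% of the 33334 features tested. Each of the 25 genes had an adjusted p of 0.999. At an unadjusted p under 0.05 there were 2 of 25 genes, Bmpr1b and Smad4, against 4.5% of features. Both were higher in cKO, where the background was 3.7%, and 0 were lower, where it was 0.807%. The 3 cKO arrays lay wholly above the 3 Control arrays for 3 of 25 genes, Bmpr1b, Smad4 and Tgfb1, against 8.95% of features. They lay wholly below for 1, Bmp5, against 2.05%. Counts this small in 25 genes did not set the genes apart from the background. The median difference over the 25 genes was 0.15 log2 units with 18 of 25 above 0, beside 0.07 and 65.8% over all features. After quantile normalization the medians were 0.06 and -0.0038, with 16 of the 25 genes and 16376 of the 33334 features above 0.

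**Figure D1:**
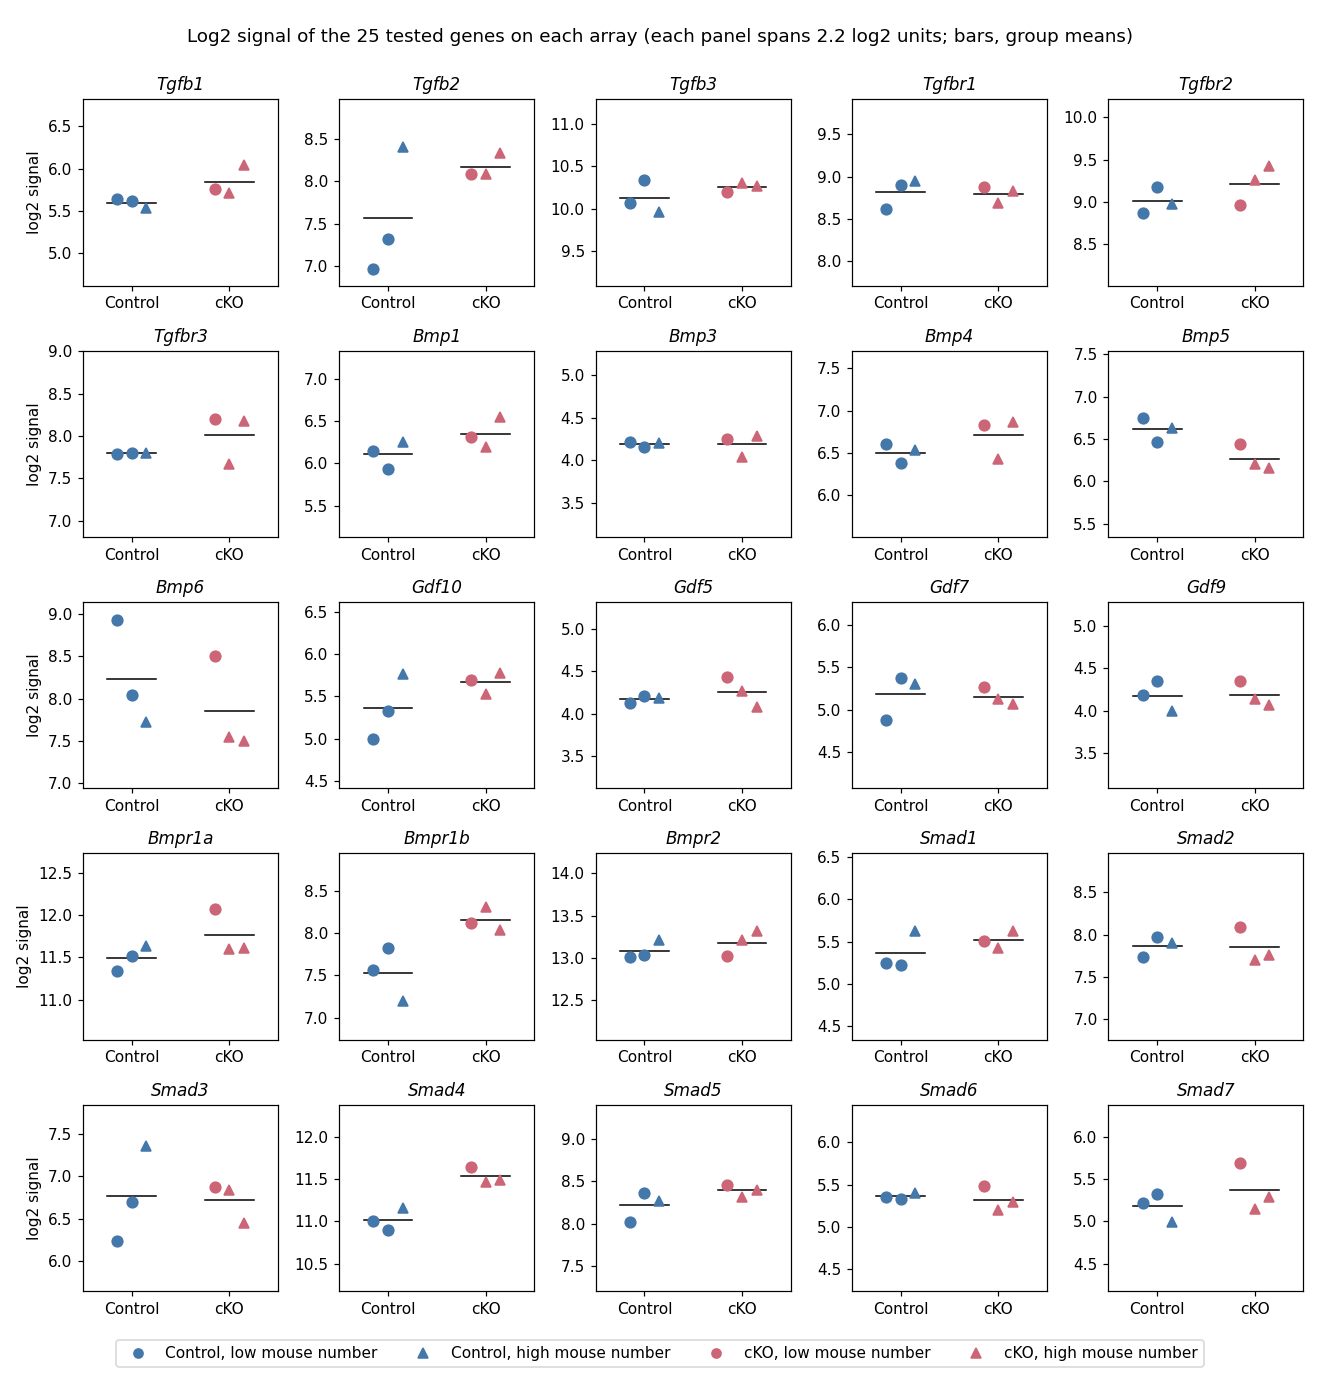
Log2 signal (vertical axes) of the 25 tested genes on each array, by genotype, with circles for low and triangles for high mouse numbers and bars at the group means. Every panel spans the same number of log2 units. Bmpr1b and Smad4 were higher on all 3 cKO arrays than on any Control array, and Bmp5 was lower on all 3.

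The mouse numbers in the labels fell in 2 ranges. The low numbers are 715, 716 and 733 (Control 1, Control 2 and cKO 1), and the high numbers are 776, 779 and 780 (Control 3, cKO 2 and cKO 3). The labels do not say what the numbers stand for. The cKO 1 array had the highest median signal, 4.37 against at most 4.13 on the others, and limma gave it the smallest array weight, 0.254 where the others had 0.589 to 4.01. Differences within each range are given as well. Each sets a single array, cKO 1 for low and Control 3 for high numbers, against 2 arrays of the other genotype. Over all features tested, 79.7% of the low-range differences were above 0, against 43.5% of the high-range differences.

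Among the ligands of the TGF-beta branch, all 3 genes passed the filter and 0 passed the test. Tgfb1, which is secreted in latent form and held in the matrix, had log2 signals of 5.64, 5.62 and 5.53 in Control and 5.76, 5.71 and 6.04 in cKO. The cKO arrays were all above the Control arrays, and cKO 3 was the highest. The difference was 0.24 log2 units (SE 0.14, 95% interval -0.1 to 0.57), a fold of 1.18, with 0.13 among low-numbered and 0.35 among high-numbered mice.

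Tgfb2, a ligand that needs the co-receptor encoded by Tgfbr3 for high-affinity binding, had log2 signals of 6.97, 7.32 and 8.4 in Control and 8.09, 8.09 and 8.33 in cKO. Control 3 was the highest of all 6 arrays and the other Control arrays were the lowest, so the groups overlapped through a single array. The difference was 0.61 log2 units (SE 0.37, interval -0.27 to 1.48), and it was 0.94 among low-numbered and -0.19 among high-numbered mice. Without Control 3 it was 1.02 (limma adjusted p = 0.263), and without Control 1 it was 0.31. Tgfb2 was the only one of 25 genes whose interaction of genotype with number range had an unadjusted p under 0.05, against 17.2% of features, and 0% of features passed after adjustment. Tgfb3, the remaining ligand of this branch, stood at 10.07, 10.34 and 9.96 in Control and 10.2, 10.31 and 10.27 in cKO. Its groups overlapped, and the difference was 0.14 (SE 0.18).

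The groups overlapped for each TGF-beta receptor. Tgfbr1, the type I kinase, had log2 signals of 8.62, 8.9 and 8.95 in Control and 8.88, 8.69 and 8.83 in cKO, a difference of -0.02 (SE 0.18, interval -0.44 to 0.4). Tgfbr2, the ligand-binding type II kinase, was at 8.87, 9.17 and 8.98 in Control and 8.96, 9.26 and 9.42 in cKO. Its difference of 0.21 (SE 0.2) was -0.06 among low-numbered and 0.35 among high-numbered mice. Tgfbr3, the co-receptor betaglycan, was nearly constant in Control at 7.79, 7.8 and 7.8 and was at 8.2, 7.67 and 8.17 in cKO. With cKO 2 below every Control array and the other cKO arrays above them, the difference was 0.21 (SE 0.19).

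Among the genes with a Bmp symbol, 5 of 11 passed the filter. Bmp5, a BMP ligand of the developing skeleton, had log2 signals of 6.75, 6.47 and 6.63 in Control and 6.44, 6.2 and 6.16 in cKO. All cKO arrays were below all Control arrays, with cKO 1 just under Control 2. The difference was -0.35 log2 units (SE 0.15, interval -0.72 to 0.01), a fold of 0.782, with -0.18 among low-numbered and -0.45 among high-numbered mice. After quantile normalization it was -0.48.

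Bmp6, a ligand of liver endothelium that acts in iron balance, was at 8.93, 8.04 and 7.72 in Control and 8.5, 7.55 and 7.5 in cKO. Its 3 low-numbered arrays were above its 3 high-numbered arrays, and the genotypes overlapped. The genotype difference was -0.38 (SE 0.4) log2 units, with 0.02 among low-numbered and -0.19 among high-numbered mice, and -0.09 (SE 0.28) with the range as a block. High minus low numbers was -0.88 (SE 0.28) with genotype in the model. Endothelial markers, 10 of 10 tested, had mean log2 signals of 9.56, 9.09 and 8.57 in Control and 8.95, 8.82 and 9 in cKO. These markers were highest on Control 1, as was Bmp6, but lowest on Control 3, not on cKO 3 as Bmp6 was. Their summed log2 signal ran from 85.7 to 95.6 in Control and from 88.2 to 90 in cKO. Their part in the Bmp6 values was not tested.

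Bmp4, a ligand used widely in development, was at 6.6, 6.38 and 6.53 in Control and 6.83, 6.43 and 6.87 in cKO, a difference of 0.21 (SE 0.17) log2 units. Bmp1 differs in kind from the rest, since it encodes a metalloprotease that trims procollagen. It was at 6.15, 5.93 and 6.25 in Control and 6.31, 6.19 and 6.55 in cKO, and differed by 0.24 (SE 0.16). Groups overlapped for both genes. Bmp3, an atypical member that opposes BMP signalling, differed by 0.01 (SE 0.12), a sign that turned after quantile normalization (-0.06) and on centring to array medians (-0.05).

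Of the growth differentiation factors, 4 of 7 passed the filter. Gdf10, a relative of Bmp3, had log2 signals of 5, 5.32 and 5.76 in Control and 5.69, 5.53 and 5.77 in cKO, and its difference was 0.31 (SE 0.21) log2 units. As for Tgfb2, Control 1 and Control 2 were the lowest, but for Gdf10 Control 3 lay among the cKO arrays rather than above them. The Gdf10 difference was 0.54 among low-numbered and -0.11 among high-numbered mice. Gdf5 and Gdf7 take part in joint and tendon formation. Gdf5 was at 4.13, 4.21 and 4.19 in Control and 4.43, 4.27 and 4.08 in cKO, differing by 0.08 (SE 0.13). Gdf7 was at 4.88, 5.37 and 5.31 in Control and 5.27, 5.13 and 5.07 in cKO, differing by -0.03 (SE 0.17). Neither gene set the groups apart. Gdf9, an oocyte factor, differed by 0.01 (SE 0.15), or by -0.06 after quantile normalization and -0.05 after median centring.

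The groups did not overlap for 1 of the 3 BMP receptors. Bmpr1b, a type I kinase that binds Gdf5 in cartilage, had log2 signals of 7.56, 7.82 and 7.2 in Control and 8.12, 8.3 and 8.03 in cKO. All 3 cKO arrays lay above all Control arrays. The means were 7.53 ± 0.31 (SD, n = 3) and 8.15 ± 0.14 (SD, n = 3). The difference was 0.62 log2 units (SE 0.21, interval 0.13 to 1.11), a fold of 1.54. It was 0.43 among low-numbered and 0.96 among high-numbered mice, and 0.69 with the range as a block (limma adjusted p = 0.765). With 1 array left out in turn it ran from 0.46 to 0.77. After quantile normalization it was 0.48, where its unadjusted p no longer lay under 0.05. With the range as a block, 3 of 25 genes, Bmpr1b, Smad4 and Smad7, had an unadjusted p under 0.05, against 6.01% of features.

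The other BMP receptors overlapped between genotypes. Bmpr1a, the type I kinase used by most BMPs, was at 11.34, 11.52 and 11.63 in Control and 12.07, 11.6 and 11.61 in cKO. Only cKO 1 stood out, and the difference of 0.26 (SE 0.22) log2 units was 0.64 among low-numbered and -0.02 among high-numbered mice. Bmpr2, the type II kinase, was at 13.01, 13.04 and 13.21 in Control and 13.02, 13.21 and 13.32 in cKO. It differed by 0.1 (SE 0.19) between genotypes and by 0.22 (SE 0.18) between high and low numbers.

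Among the SMADs, 7 of 8 passed the filter, and Smad4 was the only one whose groups did not overlap. Smad4, the shared partner of both branches, had log2 signals of 11, 10.9 and 11.16 in Control and 11.64, 11.47 and 11.49 in cKO. The cKO arrays lay close together and all above Control. The means were 11.02 ± 0.13 (SD, n = 3) and 11.53 ± 0.09 (SD, n = 3), a difference of 0.51 log2 units (SE 0.18, interval 0.08 to 0.95) and a fold of 1.43. It was 0.69 among low-numbered and 0.32 among high-numbered mice, 0.51 with the range as a block, and 0.42 after quantile normalization, where its unadjusted p no longer lay under 0.05.

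The receptor SMADs of the BMP branch showed small differences. Smad5 was at 8.02, 8.36 and 8.26 in Control and 8.46, 8.31 and 8.4 in cKO, differing by 0.17 (SE 0.17) log2 units, and Smad1 differed by 0.15 (SE 0.16). In the TGF-beta branch Smad2 differed by -0.02 (SE 0.18). Smad3 was at 6.24, 6.7 and 7.36 in Control and 6.87, 6.84 and 6.45 in cKO, a difference of -0.05 (SE 0.3) that was 0.4 among low-numbered and -0.71 among high-numbered mice. Smad3 thus varied more among the Control arrays than between the group means.

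Both inhibitory SMADs are themselves induced by the pathway. Smad7 was at 5.22, 5.32 and 4.99 in Control and 5.69, 5.14 and 5.29 in cKO, differing by 0.2 (SE 0.18) log2 units. With the range in the model the difference was 0.32 (SE 0.13, limma adjusted p = 0.765), and without cKO 1 it was 0.04. Smad6, whose promoter window held the SMAD palindrome, was at 5.35, 5.33 and 5.4 in Control and 5.48, 5.2 and 5.29 in cKO. It differed by -0.04 (SE 0.13, interval -0.34 to 0.27). No window of Smad7 was searched.

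**Figure D2:**
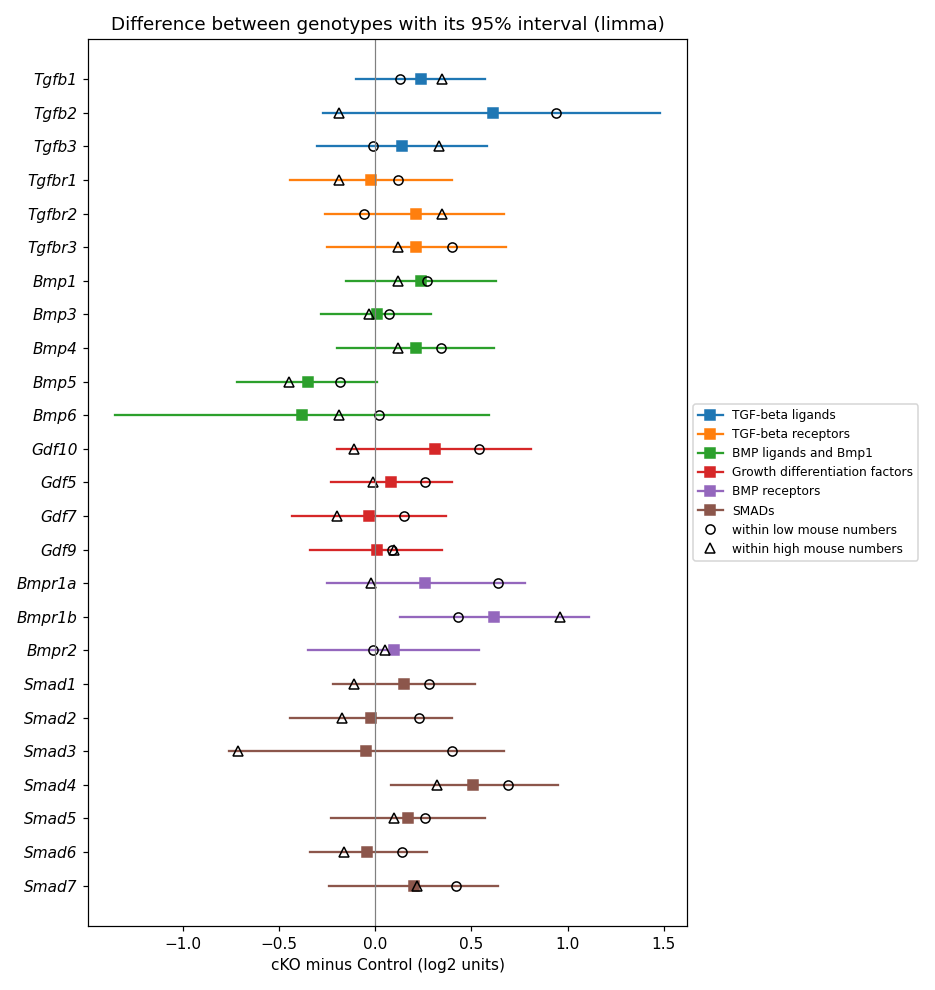
Difference between cKO and Control in log2 units (squares, with 95% intervals from limma) for the 25 tested genes by role, with open circles and triangles for the difference within low and high mouse numbers. The intervals of Bmpr1b (0.13 to 1.11) and Smad4 (0.08 to 0.95) lay above 0 before adjustment, and circles and triangles fell on opposite sides of 0 for 15 genes.

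The genes below the filter were Bmp10, Bmp15, Bmp2, Bmp7, Bmp8a, Bmp8b, Gdf2, Gdf3, Gdf6 and Smad9. Bmp15 is an oocyte ligand, Bmp10 a ligand of the heart, Gdf2 a circulating ligand from the liver, and Smad9 a receptor SMAD of the BMP branch. Their log2 signals lay between 3.19 and 4.29. Bmp2 was above the array median on 2 arrays, Bmp7 on 1 and the other genes on 0. The highest value was on cKO 1 for 6 of the 10, as it was for 9 of the 25 tested genes and for 46.4% of all features tested. No difference between genotypes is given for these genes.

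Variation with the mouse number range was set beside variation with genotype. The range difference was fitted with genotype in the model and the genotype difference without the range, so their sizes are not like for like. The median size of the range difference was 0.13 log2 units and that of the genotype difference 0.2, whereas over all features they were 0.21 and 0.15. The range difference was larger than the genotype difference for 12 of 25 genes (48%), against 62.1% of features. In the range comparison 0 of 25 genes and 0% of features passed an adjusted p of 0.05. Bmp6 and Smad7 were lower in the high numbers at an unadjusted p under 0.05, 2 of 25 against 7.86% of features, and 0 were higher, against 5.67%. The ranges did not overlap for Bmp6 and Gdf9, lower in the high numbers (12.6% of features), and for Bmpr2, higher there (7.21%). For Smad7 the range difference was -0.38 (SE 0.13). Genotype differences were above 0 for 21 of 25 genes among low-numbered mice and for 12 among high-numbered mice, with medians of 0.26 and -0.01. The same medians over all features were 0.26 and -0.04. The sign was the same in both ranges for 10 of 25 genes (40%), against 45.9% of features. These were Bmp1, Bmp4, Bmpr1b, Gdf9, Smad4, Smad5, Smad7, Tgfb1 and Tgfbr3 above 0 and Bmp5 below 0.

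**Figure D3:**
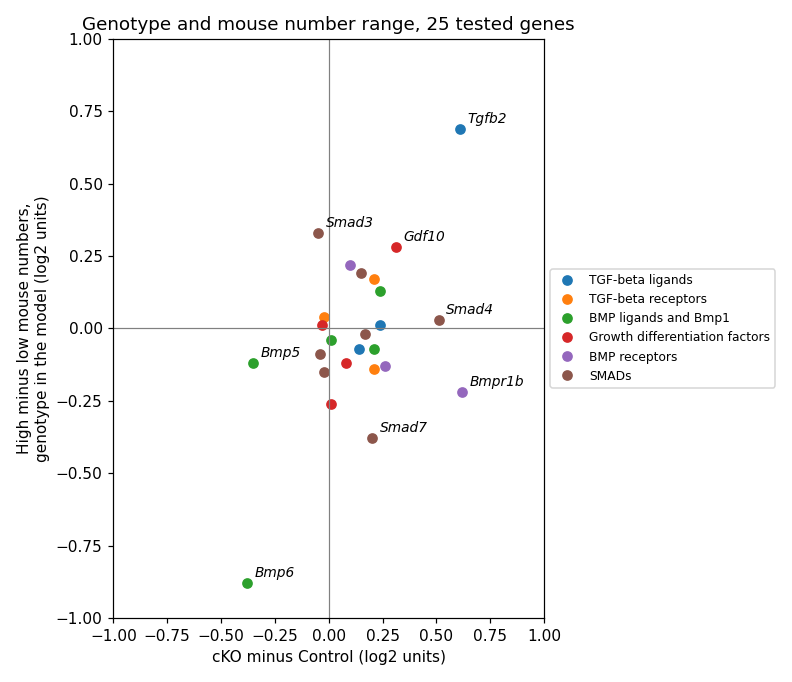
Genotype difference, fitted without the range (horizontal axis), against the difference between high and low mouse numbers, with genotype in the model (vertical axis). Both are in log2 units, for the 25 tested genes coloured by role. Bmpr1b (0.62), Tgfb2 (0.61) and Smad4 (0.51) lay farthest along the genotype axis. On the range axis Bmp6 was at -0.88 and Tgfb2 at 0.69.

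Other genes of the pathway came from 6 lists, and 0 of their genes passed an adjusted p of 0.05. The counts above 0 stand beside 65.8% of all features, or 16376 of the 33334 after quantile normalization. The 3 genes named from each list had its smallest unadjusted limma p, a choice that favours groups without overlap. Genes for latency, activation and storage of TGF-beta were above 0 in 13 of 13 tested (11 after quantile normalization), with a median difference of 0.14 log2 units. Thbs1, a matrix protein that activates latent TGF-beta, had log2 signals of 7.12, 7.43 and 8.32 in Control and 8.62, 8.53 and 9.14 in cKO. All cKO arrays were above all Control arrays, and Control 3 came closest to them. The difference was 1.14 (SE 0.34), a fold of 2.21, and it was 1.34 among low-numbered and 0.52 among high-numbered mice. Lrrc32, which anchors latent TGF-beta on the cell surface, differed by 0.47 (SE 0.22), with 0.12 among low-numbered and 0.68 among high-numbered mice, and by 0.25 without cKO 3. Furin, a protease that cuts the precursors, differed by 0.32 (SE 0.15), with 0.52 among low-numbered and 0.14 among high-numbered mice. The groups did not overlap for either gene. In the list this held for 3 of 13 genes, all higher in cKO, against 8.95% of features.

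Secreted antagonists and modulators were above 0 in 11 of 13 tested genes, or 8 after quantile normalization, with a median of 0.09 log2 units. Twsg1, which binds BMPs, differed by 0.23 (SE 0.22), and the BMP antagonists Nog and Chrdl1 by 0.13 (SE 0.14) and 0.14 (SE 0.16). Single arrays moved these values, which with 1 array left out ran from 0.05 to 0.36 for Twsg1, from 0.03 to 0.22 for Nog and from 0.05 to 0.24 for Chrdl1. The lowest was without cKO 3 for Twsg1 and without cKO 1 for Nog and Chrdl1. Co-receptors and other type I receptors were above 0 in 5 of 9 tested genes, or 4 after quantile normalization. Hjv, a BMP co-receptor abundant in muscle, had log2 signals of 16.15, 15.69 and 15.86 in Control and 16.51, 16.49 and 16.5 in cKO. The cKO arrays were nearly identical and all above Control, which held for 1 of the 9 tested genes, against 8.95% of features. The Hjv difference was 0.6 (SE 0.19), with 0.59 among low-numbered and 0.63 among high-numbered mice. Cd109, a TGF-beta co-receptor, differed by 0.44 (SE 0.21), with 0.6 among low-numbered and 0.12 among high-numbered mice. Rgma, a BMP co-receptor, differed by 0.39 (SE 0.24), with 0.63 among low-numbered and -0.12 among high-numbered mice. Its highest array was Control 3, through which alone the groups overlapped, and the difference was 0.65 without that array and 0.23 without Control 1.

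SMAD cofactors and ubiquitin ligases differed in both directions, with 11 of 17 tested genes above 0 and 6 below, near the share of all features above 0. After quantile normalization 8 were above and 9 below. Ppm1a, a phosphatase that acts on receptor SMADs, had log2 signals of 12.86, 13.1 and 12.6 in Control and 12.19, 12.24 and 12.01 in cKO, all cKO arrays below all Control arrays. The difference was -0.71 (SE 0.21) log2 units. Zfyve9, the endosomal anchor that presents SMADs to the TGF-beta receptor, was at 9.85, 10.3 and 9.9 in Control and 9.6, 9.46 and 9.23 in cKO, differing by -0.59 (SE 0.21). Hgs, an endosomal sorting protein, was at 7.36, 7 and 7.38 in Control and 7.83, 7.76 and 8.03 in cKO, differing by 0.62 (SE 0.18). The anchor and the sorting protein lay on opposite sides of 0, each without overlap of the groups. In the list of 17, groups did not overlap for 4 genes higher in cKO and 3 lower. Over all features these shares were 8.95% and 2.05%.

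TGF-beta target genes were above 0 in 12 of 13 tested (12 after quantile normalization), against 65.8% of features, with a median of 0.38 log2 units. Ccn2, a matricellular protein, was at 7.1, 6.92 and 6.93 in Control and 7.35, 7.2 and 7.74 in cKO, differing by 0.45 (SE 0.19). The matrix protein Tnc was at 4.58, 4.63 and 4.82 in Control and 4.97, 4.83 and 5.37 in cKO, differing by 0.38 (SE 0.17). Fibronectin, Fn1, was at 10.07, 10.84 and 11.18 in Control and 11.29, 11.14 and 12.96 in cKO, differing by 1.1 (SE 0.54). All 3 genes were highest on cKO 3, and without that array the differences were 0.29, 0.22 and 0.52. The mean log2 signal of the list was 7.26, 7.34 and 7.88 in Control and 7.82, 7.64 and 8.38 in cKO, so Control 3 lay above cKO 1 and cKO 2. BMP target genes were above 0 in 3 of 9 tested, with a median of -0.07, or -0.14 after quantile normalization. That list did not separate targets raised by BMP signalling from targets lowered by it, so its count and median do not measure BMP signalling. Id1, a repressor of differentiation, was at 8.99, 9.85 and 7.95 in Control and 8.15, 7.98 and 8.42 in cKO, a difference of -0.75 (SE 0.46) that was -1.27 among low-numbered and 0.25 among high-numbered mice. Without Control 2 it was -0.29 and without Control 3 it was -1.24. Atoh8 differed by 0.27 (SE 0.19), with 0.03 among low-numbered and 0.59 among high-numbered mice, and by 0.14 without Control 3 and 0.15 without cKO 2. Fbxo30, a ubiquitin ligase of muscle wasting, differed by -0.23 (SE 0.22), with 0.21 among low-numbered and -0.55 among high-numbered mice. Its highest array was cKO 1, without which the difference was -0.42, and without cKO 3 it was -0.1. The difference between the lists was not tested.

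Markers of other cell types stood beside these values. Tendon cell markers were above 0 in 9 of 10 tested genes (8 after quantile normalization), against 65.8% of features, with a median of 1.16 log2 units. Of the 10, 6 were higher at an unadjusted limma p under 0.05, against 3.7% of features, and 0 passed after adjustment. The summed log2 signal of these markers ran from 57.9 to 65.3 in Control and from 70.6 to 73 in cKO. The tendon transcription factor Scx was at 5.63 in Control and 5.7 in cKO, and Mkx, below the filter, at 3.62 and 3.67. Control 3 had the highest tendon sum of the Control arrays. It was also the highest Control array for Tgfb2, Gdf10, Smad4 and Thbs1, but the lowest for Bmpr1b, Tgfb1, Tgfb3, Bmp6 and Smad7. Connective tissue fibroblast markers were above 0 in 7 of 10 tested genes, against 65.8% of features. Their sums were 89.3 to 97.1 in Control and 91.2 to 100.9 in cKO. Col1a1, Col1a2, Col3a1, Fn1 and Postn, all above 0, belonged both to that list and to the TGF-beta targets. Of the fibroblast markers outside the TGF-beta targets, Lum, Dpt and Dcn differed by -0.87, -0.47 and -0.23, and Pi16 and Cd34 by 0.34 and 0.22. The part of tendon and connective tissue cells in the values of Bmpr1b, Smad4, Tgfb2, Thbs1 and the TGF-beta targets was not tested.

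**Figure D4:**
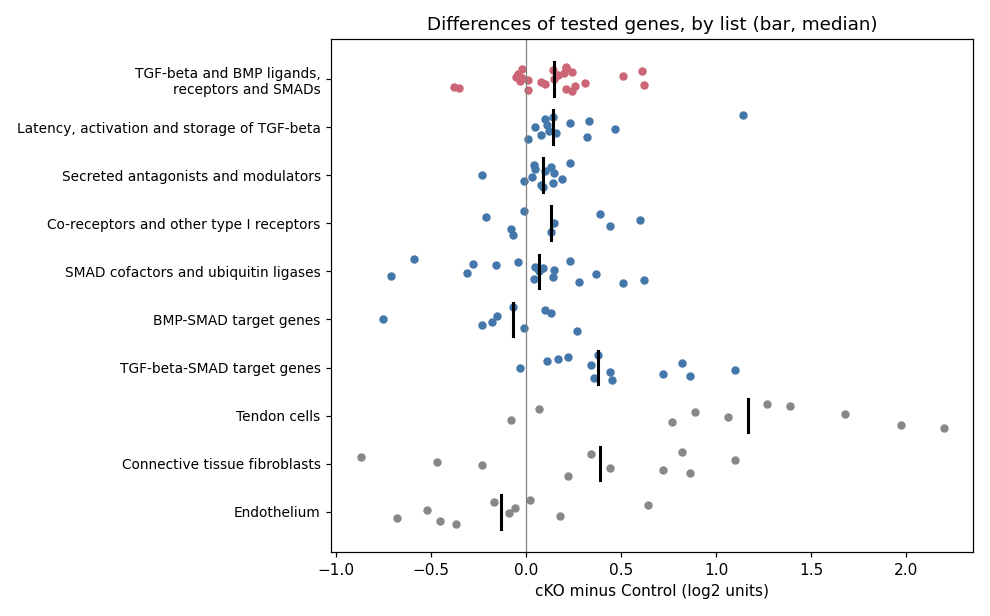
Difference between cKO and Control in log2 units (horizontal axis) for each tested gene, by list, with black bars at the list medians. Ligands, receptors and SMADs lay around a median of 0.15, TGF-beta targets around 0.38, BMP targets around -0.07 and tendon markers around 1.16.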

How the data were processed

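The authors deposited 1 signal per feature and array, taken here as log2 values from their range, 1.92 to 19.93. Per the labels' protocols, DNase-treated total RNA was made into biotinylated cDNA by the WT Plus protocol. The log base, the software, the genome build and any normalization are not given in the sources used here. Of 72688 features, 6732 held no value.

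Genes were named from the platform annotation where it gave 1 distinct symbol (30604 features, 2146 with several, 33206 unnamed here). For list genes, 22818 features matched RefSeq names on GRCm38.p6. The feature with Gdf1 also carried another symbol and was not used.

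Features above their array median on at least 3 arrays (33334) went into limma 3.58.1 under R 4.3.3 (lmFit and eBayes with trend, two-sided), with Benjamini-Hochberg adjustment over all of them. The fit was tested on simulated data. Python 3.11.15 and pandas 2.3.3 made the tables, and matplotlib 3.10.9 the plots. Groups came from the sample titles. Each array is a separate mouse by the labels, and 3 arrays per group limit the precision.

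The genes and lists were chosen with earlier results of these data known. Per-array values are given for genes with an unadjusted p under 0.05 or groups without overlap and for the 3 genes of each role with the smallest p, and 3 genes are named from each pathway list likewise. Leaving out each array for those list genes was chosen after seeing the data. Bmp6, Smad3 and Smad6 were added after their values were seen. Smooth muscle and pericyte markers were above 0 in 7 of 8 tested genes, macrophage markers in 7 of 9, and slow muscle markers in 8 of 10. Over all features tested the share above 0 was 65.8%. Same-numbered Control and cKO arrays deviated from their group means with correlations of 0.128, -0.204 and 0.205, so the replicate numbers were not taken as pairs.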

Additional observations from a re-analysis of the deposited data

How the results depend on the processing

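The fit was repeated after quantile normalization or median centring, with no filter or a stricter one (75th percentile), with eBayes untrended or robust, with array weights, with the replicate number or number range as a block, with the range block on quantile-normalized values, over gene means, and with each array left out. In each, 0 of the genes described passed an adjusted p of 0.05 in limma, with 0 to 5 at an unadjusted p under 0.05. Over all features 0 passed in the reported fit, with 1501 at an unadjusted p under 0.05. With array weights, 5 of the genes described and 4256 of the 33334 features had an unadjusted p under 0.05, and 0 features passed. With 1 array left out the number of features passing ran from 0 to 14, the higher count being that without Control 3. The median difference of the tested genes stayed between 0.06 and 0.21 log2 units.

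With the replicate block 0 genes passed, 1 had an unadjusted p under 0.05, and no call changed. Of 17 alternatives, all kept the sign of Bmpr1b, Smad4 and Bmp5, with an unadjusted p under 0.05 in 13, 10 and 7. Small differences turned sign, and the cause was not tested. With 1 array left out, Gdf5 ran from -0.00097 to 0.17, Gdf7 from -0.18 to 0.07 and Tgfbr1 from -0.12 to 0.04. Gdf7 was at 0.03 with array weights, and Bmpr2 at -0.1 on quantile-normalized values with the range block. In the range comparison 0 features passed in any of its alternatives, with 4511 at an unadjusted p under 0.05 in the reported fit.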

Other observations

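Eng, a TGF-beta family co-receptor of endothelium, varied more between arrays than any of the ligands, receptors and SMADs tested. Its log2 signals were 11.85, 10.74 and 8.59 in Control and 9.75, 10.89 and 11 in cKO. The groups overlapped, with Control 3 the lowest array and Control 1 the highest. The difference was 0.15 (SE 0.82) log2 units, and it was -1.54 among low-numbered and 2.35 among high-numbered mice. Endothelial markers also had their lowest mean on Control 3 (8.57) and their highest on Control 1 (9.56), and their part in the Eng values was not tested. Eng was chosen after its values were seen.

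Timp1, a metalloprotease inhibitor in the TGF-beta target list, did not pass the filter and was not tested. Its log2 signals were 3.82, 3.55 and 3.86 in Control and 4.06, 3.93 and 4.76 in cKO, without overlap of the groups and highest on cKO 3. It too was chosen after its values were seen.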
